A study of Mus musculus with 16 samples.

Results

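The 42 genes described here carry a dividing cell through the G1/S transition, DNA replication and mitosis, and were chosen by name for those roles. They were read in 16 mouse kidney arrays, in which 19938 genes were tested. Each gene stood for itself through an array row paired with exactly 1 gene symbol, and where several such rows existed the brightest on average was used. By this rule 41 of the 42 genes had a value. The remaining gene, Ccnb1, which encodes cyclin B1, had no row with a single symbol and was not analysed here. By role, 5 measured genes were regulators of cell cycle entry, 12 served DNA replication and nucleotide supply in S phase, 10 were G2 and mitotic cyclins and kinases, 12 were chromosome, spindle and cytokinesis proteins, and 2 (Cdc20 and Ube2c) served the ubiquitination that ends mitosis.

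A cell that leaves the resting state first makes D-type and E-type cyclins, whose kinases release the E2F transcription factors from the retinoblastoma family of repressors. E2F factors then switch on genes for origin licensing, nucleotide synthesis and the replication fork, and later the MuvB complex with B-MYB and FOXM1 switches on mitotic genes, which the DREAM complex keeps silent in resting cells. Most tubular cells of the adult kidney rest, and surviving cells re-enter the cycle after acute tubular injury. VHL is the ubiquitin ligase subunit that marks the alpha subunits of hypoxia-inducible factor (HIF) for destruction when oxygen is present, so its loss stabilises HIF.

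All mice carried a Pax8-rtTA driver, through which doxycycline induces loss of Vhl in kidney tubules, so the other kidney cells keep the gene. VHL-KO/AKI kidneys (n = 5) came from mice given doxycycline under the skin 4 days before sacrifice, at 0.1 mg for each 10 g of the animal, and 50% glycerol at 0.05 ml per 10 g into a hind limb muscle, which causes rhabdomyolysis and with it acute kidney injury (AKI). AKI kidneys (n = 5) came from mice given the glycerol alone, VHL-KO kidneys (n = 3) from mice given doxycycline alone, and Control kidneys (n = 3) from untreated mice of the line, whose genotype is labelled wt. Glycerol went with water withdrawal that began 20 h earlier and ended 24 h later, and the labels describe neither a group with doxycycline and intact Vhl nor one with water withdrawal by itself. The mice were of both sexes and weighed 24 to 31 g. RNA came from halved kidneys, so a change can reflect the number of cells of a type or the RNA per cell, and the 2 cannot be told apart.

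All values are log2 levels as deposited, a log2 difference of 1 being a 2-fold difference. A gene was called where limma, a linear model with shared variance estimates across genes, gave a Benjamini-Hochberg adjusted p under 0.05 over all 19938 genes. Signals of these genes were mostly dim. The row of 32 of the 41 lay below the median gene (6.21), and 15 lay in the lowest tertile of genes, where signals near background compress differences. The labelled biological replicates are not said to be separate litters or days, so p-values measure the spread between these kidneys.

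Array medians lay between 5.92 and 6.03. Vhl itself averaged 6.50 ± 0.12 in VHL-KO/AKI kidneys and 7.16 ± 0.12 in AKI kidneys (SD, n = 5 each), a difference of -0.67 (adjusted p = 9.98e-05, limma). Vhl was 6.70, 6.62 and 6.64 in VHL-KO kidneys, against 7.03, 7.05 and 7.10 in Control kidneys, with no overlap but an adjusted p of 0.0565. The array AKI 4 stood apart: over all genes its correlation with the rest of its group averaged 0.975, where the other AKI arrays had 0.984 to 0.986, and its injured tubule markers averaged 9.61 against 10.59 to 10.82. Sex-linked genes moved with injury. Xist lay between 4.16 and 5.08 in all 10 injured kidneys and between 10.23 and 11.47 in all 6 uninjured ones, and the mean of 3 Y-linked genes lay between 7.77 and 8.26 in injured kidneys and between 4.81 and 5.01 in uninjured ones, apart from Control 3 at 7.43. Sex and injury therefore cannot be told apart in either comparison of injured with uninjured kidneys, whereas the comparison of VHL-KO/AKI with AKI kidneys held the same sex-linked pattern on both sides.

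**Figure D1:**
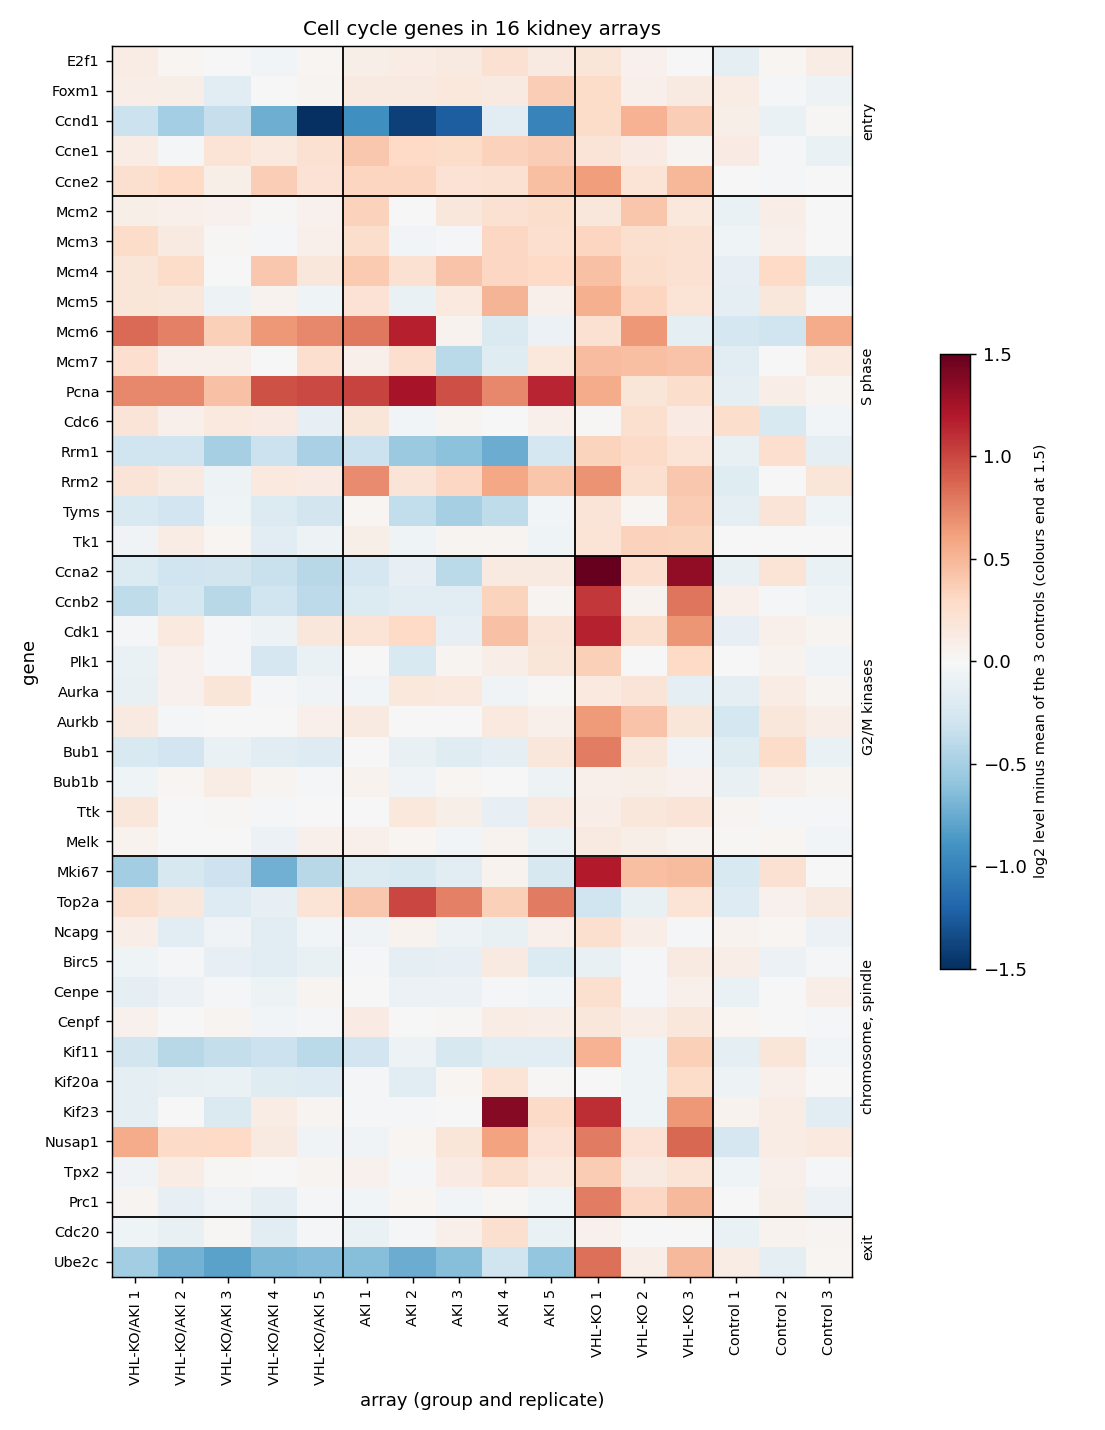
Each row is 1 of the 41 genes, grouped by role, and each column 1 of the 16 arrays. Colour gives the log2 level minus the mean of the 3 Control arrays, with colours ending at 1.5. Mitotic genes are darkest red in VHL-KO 1 and VHL-KO 3 and pale in VHL-KO 2, while Pcna is red and Ccnd1 and Ube2c are blue in most injured kidneys.

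The promoters of a few genes on which the comparisons turn are printed, with the motifs of all that had a window. Windows of 250 bases before to 50 after the transcription start were taken from RefSeq (build GRCm38.p6) for 34 of the 42 genes. Foxm1, Ccnd1, Ccne2, Mcm4, Ccna2, Aurkb, Kif20a and Tpx2 had none. Both strands were searched for an E2F core (TTGGCGC, or else TTCCCGC, or else TTCGCGC, or else TTGCCGC), for CCAAT, the box bound by NF-Y, and for the cell cycle homology region TTTGAA (CHR), the element through which MuvB complexes bind mitotic genes. An E2F core stood in the windows of 7 of 11 S phase genes (63.6%), of 4 of 21 mitotic genes (19%, the last 3 roles together) and of 10.9% of all 27025 genes with a window. TTTGAA stood in 1 of 11 S phase genes (9.09%), 15 of 21 mitotic genes (71.4%) and 20.2% of all genes. CCAAT stood in 72.7% of S phase genes, 85.7% of mitotic genes and 41.1% of all genes, and CCAAT together with TTTGAA in 71.4% of mitotic genes and 7.97% of all genes. Of the regulators of entry, E2f1 and Ccne1 had a window, and 0 of 2 held any of these motifs. A match is a string in a window and not a measured binding site.

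Of S phase genes, the promoters of both subunits of ribonucleotide reductase, the enzyme that makes deoxynucleotides, are shown. Rrm1, the large subunit, lies at chr7:102441445-102441744 on the plus strand, and Rrm2, the small subunit, at chr12:24708004-24708303 on the plus strand. Capitals mark the E2F core, which begins 67 bases before the start of Rrm1 and 235 before that of Rrm2. Rrm1 had the smallest limma p among called S phase genes with an E2F core in their window. That choice drew on AKI against Control and VHL-KO/AKI against AKI kidneys. Pcna, of smaller p, had no E2F core. Rrm2 was chosen after its values were seen. The motif was thus a condition for printing either promoter.
Rrm1: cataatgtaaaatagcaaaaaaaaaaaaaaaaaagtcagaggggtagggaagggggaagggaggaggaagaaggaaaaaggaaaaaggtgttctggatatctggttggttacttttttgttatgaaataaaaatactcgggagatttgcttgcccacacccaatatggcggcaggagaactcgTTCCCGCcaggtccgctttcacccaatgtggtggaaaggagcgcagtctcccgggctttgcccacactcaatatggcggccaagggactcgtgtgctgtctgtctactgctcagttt
Rrm2: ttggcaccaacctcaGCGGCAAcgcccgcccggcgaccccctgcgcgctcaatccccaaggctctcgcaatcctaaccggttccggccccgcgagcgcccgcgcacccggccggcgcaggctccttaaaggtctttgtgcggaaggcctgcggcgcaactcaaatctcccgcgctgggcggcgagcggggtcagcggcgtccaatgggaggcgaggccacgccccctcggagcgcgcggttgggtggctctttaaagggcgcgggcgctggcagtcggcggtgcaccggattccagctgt

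Of mitotic genes, Ube2c, Prc1 and Top2a are shown, the first pair chosen after their values were seen. Top2a, on its brighter row, had the smallest limma p among called mitotic genes with CCAAT and TTTGAA in their window. That choice drew on the same comparisons as for Rrm1, and the motifs were a condition for printing each promoter. Ube2c lies at chr2:164769679-164769978 on the plus strand, Prc1 at chr7:80294201-80294500 on the plus strand (1 of 2 windows of the gene) and Top2a at chr11:99024140-99024439 on the minus strand. Capitals mark CCAAT or its reverse ATTGG, and TTTGAA or its reverse TTCAAA. Ube2c holds 6 CCAAT matches, a pair of which overlap, and 1 CHR match that begins 29 bases before the start. Prc1 holds 1 of each, beginning 37 and 5 bases before the start, and Top2a holds 6 CCAAT and 2 CHR matches.
Ube2c: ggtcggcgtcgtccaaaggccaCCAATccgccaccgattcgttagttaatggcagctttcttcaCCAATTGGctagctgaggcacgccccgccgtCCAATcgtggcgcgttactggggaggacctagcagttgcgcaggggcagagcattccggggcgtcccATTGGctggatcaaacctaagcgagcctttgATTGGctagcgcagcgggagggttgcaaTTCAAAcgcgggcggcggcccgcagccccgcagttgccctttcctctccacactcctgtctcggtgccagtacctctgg
Prc1: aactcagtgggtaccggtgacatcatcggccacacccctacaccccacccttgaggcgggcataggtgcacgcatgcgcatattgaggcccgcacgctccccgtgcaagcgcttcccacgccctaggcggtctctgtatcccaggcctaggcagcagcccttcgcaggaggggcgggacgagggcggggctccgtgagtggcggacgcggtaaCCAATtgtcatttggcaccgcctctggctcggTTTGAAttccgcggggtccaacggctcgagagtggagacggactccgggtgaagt
Top2a: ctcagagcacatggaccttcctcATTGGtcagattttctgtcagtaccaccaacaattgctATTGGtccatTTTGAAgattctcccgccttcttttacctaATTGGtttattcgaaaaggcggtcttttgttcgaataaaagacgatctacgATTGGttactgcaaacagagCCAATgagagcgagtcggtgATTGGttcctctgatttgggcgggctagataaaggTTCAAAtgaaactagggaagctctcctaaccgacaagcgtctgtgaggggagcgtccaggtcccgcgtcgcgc

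Without injury, the genes as a group lay higher in VHL-KO than in Control kidneys, but a single one passed the test. Prc1, which bundles the microtubules of the central spindle before the cell divides, was 5.17, 4.71 and 4.88 in VHL-KO kidneys, against 4.40, 4.49 and 4.30 in Control kidneys. All 3 VHL-KO kidneys lay above all 3 Control kidneys. Prc1 rose by 0.52 on the log2 scale (SE 0.09, 1.44-fold, adjusted p = 0.0212, limma). Its row was dim, with a mean of 4.47 over the 16 arrays, above 12.9% of genes. This 1 of 41 genes called (2.44%) stands beside 0.527% of all genes called in this comparison and 0.476% called higher, with 0.0502% called lower. The call was lost, with adjusted p from 0.0724 to 0.121, without Control 1, Control 3, VHL-KO 1 or VHL-KO 3. Other alternatives also lost it, among them a model with a sex-linked level (Xist minus the Y-linked mean).

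Among the regulators of entry, none of 5 was called (0 by limma, 1 at an unadjusted p under 0.05). Ccne2, cyclin E2, which starts S phase with CDK2, was 5.99, 5.56 and 5.86 in VHL-KO kidneys, against 5.36, 5.34 and 5.37 in Control kidneys. The groups did not overlap, and the Control values lay close together. The difference was 0.44 (SE 0.10, adjusted p = 0.0764). Ccnd1, cyclin D1, which senses growth signals, was 10.82, 11.06 and 10.91 in VHL-KO kidneys, against 10.62, 10.44 and 10.55 in Control kidneys. It too did not overlap, and it had the widest interval of this class, from -0.26 to 1.04.

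None of the 12 S phase genes was called (0 by limma, 9 at an unadjusted p under 0.05), and all 12 differences were positive, between 0.12 for Cdc6, which loads the helicase at origins, and 0.45 for the helicase subunit Mcm7. In 7 of the 12 the groups did not overlap. Over all genes 8.35% had an unadjusted p under 0.05, and 11.8% lay higher without overlap. Mcm7 averaged 6.55 ± 0.02 in VHL-KO kidneys and 6.10 ± 0.15 in Control kidneys (SD, n = 3 each). Tk1, thymidine kinase of the salvage pathway, averaged 5.92 ± 0.08 in VHL-KO kidneys and 5.63 ± 0.01 in Control kidneys (SD, n = 3 each). Pcna, the sliding clamp of the replication fork, was 9.57, 9.20 and 9.27 in VHL-KO kidneys, against 8.86, 9.12 and 9.05 in Control kidneys. Its groups also did not overlap, with a difference of 0.34 (SE 0.15, adjusted p = 0.566).

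The mitotic genes had the largest differences and the largest spread. Ccna2, cyclin A2, which serves S phase and entry into mitosis, was 6.68, 5.37 and 6.44 in VHL-KO kidneys, against 5.00, 5.32 and 5.01 in Control kidneys. VHL-KO 2 lay just above Control 2, and the other VHL-KO kidneys lay more than 1 log2 unit above every Control kidney. Ccna2 had a difference of 1.05 (SE 0.25, 2.08-fold, adjusted p = 0.0907). Mki67, the gene of the proliferation antigen Ki-67, was 7.02, 6.28 and 6.30 in VHL-KO kidneys, against 5.59, 6.05 and 5.83 in Control kidneys. VHL-KO 1 stood highest and the groups did not overlap, with a difference of 0.71 (SE 0.18, adjusted p = 0.124). Ccnb2, cyclin B2, and its kinase Cdk1 followed the order of Ccna2 among the VHL-KO kidneys. Ccnb2 was 6.89, 5.88 and 6.63 in VHL-KO kidneys, against 5.91, 5.81 and 5.77 in Control kidneys, so that VHL-KO 2 lay within the Control range. Cdk1 was 6.68, 5.77 and 6.19 in VHL-KO kidneys, against 5.41, 5.61 and 5.57 in Control kidneys, without overlap. Ube2c, the ubiquitin-conjugating enzyme of the anaphase-promoting complex, was 7.78, 7.06 and 7.45 in VHL-KO kidneys, against 7.07, 6.83 and 6.99 in Control kidneys, with VHL-KO 2 inside the Control range. At the other end of the mitotic classes, Birc5 (survivin) averaged 5.01 ± 0.12 in VHL-KO kidneys and 5.00 ± 0.10 in Control kidneys (SD, n = 3 each).

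Over all 41 genes the median difference was 0.26, against 0.02 over all genes tested. Differences were positive in 40 of 41 genes, against 57.4% of all genes, and 21 had an unadjusted p under 0.05, against 8.35%. Groups did not overlap, with VHL-KO higher, in 19 of 41 genes, against 11.8% of all genes, and with VHL-KO lower in 0 of 41, against 5.33%. The 3 VHL-KO kidneys were unlike each other: VHL-KO 1 was the highest of the 3 in 27 of 41 genes. VHL-KO 2 was the lowest in 19 and VHL-KO 3 in 16. Without VHL-KO 2, 6 genes were called (Ccna2, Ccnb2, Ccne2, Cdk1, Prc1 and Ube2c). Without AKI 4, whose values bear on the pooled variance, 2 were (Prc1 and Ccne2). Leaving out an array changes the variance estimates of all genes, and the shares of all genes called in these fits are not given. Markers of other cell types were read in the same kidneys. The 7 lymphocyte markers averaged 5.71 in VHL-KO 1, against 4.95 and 4.90 in the other VHL-KO kidneys and 4.94 to 5.04 in Control kidneys, with 0 of 7 called. The 8 macrophage markers averaged 8.48 in VHL-KO 1, against 7.74 and 7.70 in the other VHL-KO kidneys and 7.37 to 8.35 in Control kidneys, with 0 of 8 called. The 7 endothelial markers averaged 9.68 to 9.92 in VHL-KO kidneys, against 9.20 to 9.31 in Control kidneys, with 0 of 7 called and 6 at an unadjusted p under 0.05. The 4 measured erythroid markers averaged at least 7.10 in VHL-KO kidneys, against at most 6.54 in Control kidneys. Of these 1 of 4 was called, against 0.527% of all genes. This was Alas2, the haem synthesis enzyme of red cell precursors, which rose (2.11, adjusted p = 0.00176, limma). Differences of the 4 ran from -0.05 to 2.11, with a median of 0.38. The part of these cells in the cell cycle values was not tested.

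**Figure D2:**
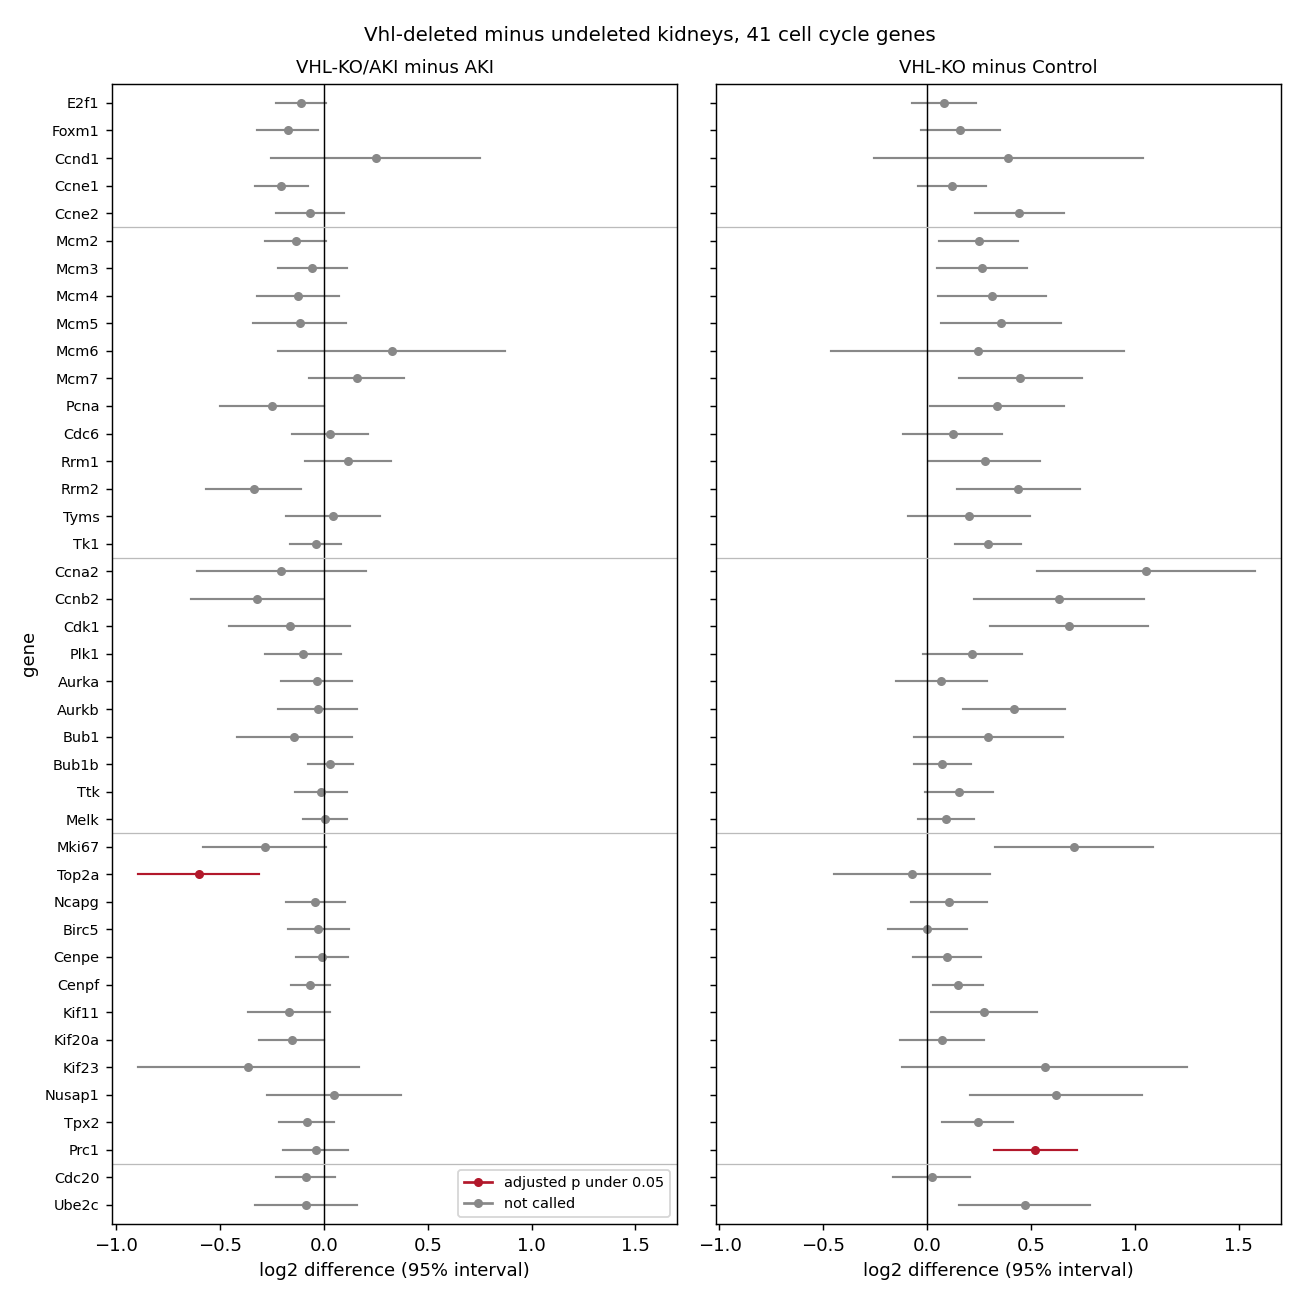
Points give the log2 difference of each of the 41 genes between Vhl-deleted and undeleted kidneys, with 95% intervals, for VHL-KO/AKI minus AKI on the left and VHL-KO minus Control on the right. Red marks an adjusted p under 0.05, which Top2a has on the left and Prc1 on the right. On the left 32 of 41 points lie below 0 and on the right 40 of 41 lie above it.

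After glycerol alone, Pcna and both E-type cyclins were among 6 genes that rose, cyclin D1 was among 3 that fell, and no mitotic cyclin or kinase passed the test. AKI kidneys differed from Control kidneys at 9 of 41 genes (22%), 6 higher and 3 lower, beside 28.1% of all genes called in this comparison, 13.2% higher and 14.9% lower. The share among the cell cycle genes was thus no higher than that over all genes. Their median difference was 0.05, against 0.02 over all genes. Differences were positive in 26 of 41, against 54.8% of all genes, and 12 had an unadjusted p under 0.05, against 38.2%.

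Pcna rose most. It was 10.02, 10.25, 9.98, 9.73 and 10.16 in AKI kidneys, against 8.86, 9.12 and 9.05 in Control kidneys. Every AKI kidney lay above every Control kidney, and the difference was 1.02 (SE 0.13, 2.02-fold, adjusted p = 9.88e-05, limma). A second row of Pcna gave 1.03. Ccne1, cyclin E1, was 6.09, 5.99, 5.96, 6.03 and 6.06 in AKI kidneys, against 5.81, 5.66 and 5.59 in Control kidneys. The groups did not overlap, and Ccne1 rose by 0.34 (SE 0.07, adjusted p = 0.00212). Ccne2 also rose, by 0.31 (adjusted p = 0.0172), although without Control 1 or Control 2 it did not pass (adjusted p up to 0.0572).

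The 2 subunits of ribonucleotide reductase moved in opposite directions. Rrm2 was 6.08, 5.56, 5.67, 5.95 and 5.79 in AKI kidneys, against 5.18, 5.37 and 5.55 in Control kidneys. The lowest AKI kidney lay just above the highest Control kidney. Rrm2 rose by 0.44 (SE 0.12, adjusted p = 0.0147), a call lost without Control 1 (adjusted p = 0.0901). Rrm1 was 7.59, 7.36, 7.30, 7.17 and 7.65 in AKI kidneys, against 7.81, 8.16 and 7.77 in Control kidneys. Every AKI kidney lay below every Control kidney, and Rrm1 fell by 0.50 (SE 0.11, adjusted p = 0.00384). Of the helicase subunits, Mcm4 was called, rising by 0.33 (adjusted p = 0.0312) with Control 2 inside the AKI range, and the call was lost without Control 1, Control 3, AKI 1 or AKI 3 (adjusted p up to 0.164). Mcm6 was uneven inside its groups, at 5.75, 6.12, 5.01, 4.73 and 4.87 in AKI kidneys and 4.69, 4.65 and 5.51 in Control kidneys.

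Ccnd1 was 9.62, 9.14, 9.30, 10.37 and 9.53 in AKI kidneys, against 10.62, 10.44 and 10.55 in Control kidneys. AKI 4 lay nearest to the Control kidneys and the groups did not overlap. Ccnd1 fell by 0.95 (SE 0.27, adjusted p = 0.0168), and the call was lost without Control 1 or Control 3 (adjusted p up to 0.0619). Ube2c was 6.33, 6.21, 6.32, 6.66 and 6.38 in AKI kidneys, against 7.07, 6.83 and 6.99 in Control kidneys. No AKI kidney reached the Control range, and Ube2c fell by 0.58 (SE 0.13, adjusted p = 0.00423). The other transcriptional regulators of entry, E2f1 and Foxm1, had differences of 0.14 and 0.19 and were not called (adjusted p = 0.129 and 0.0962).

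None of the 10 G2 and mitotic cyclins and kinases was called (0 by limma, and 0 at an unadjusted p under 0.05), with differences between -0.10 and 0.20. Ccna2 was 4.85, 4.98, 4.71, 5.25 and 5.25 in AKI kidneys, against 5.00, 5.32 and 5.01 in Control kidneys, and Mki67 was 5.62, 5.60, 5.67, 5.88 and 5.59 in AKI kidneys, against 5.59, 6.05 and 5.83 in Control kidneys. Both sets of groups overlapped. Prc1 was 4.36, 4.43, 4.36, 4.42 and 4.34 in AKI kidneys, inside the Control range of 4.30 to 4.49. Kif23, the motor protein that works with the central spindle, was 6.77 in AKI 4 and 5.37 to 5.68 in the other AKI kidneys.

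The value of Top2a, the topoisomerase that untangles replicated chromosomes, depended on the array row. The brighter row, which the rule takes, is annotated with 1 cDNA that the probe table also lists on rows shared with the gene Hibadh. On that row Top2a was 7.01, 7.61, 7.35, 6.96 and 7.37 in AKI kidneys, against 6.41, 6.66 and 6.73 in Control kidneys, without overlap, and rose by 0.66 (SE 0.16, adjusted p = 0.00556). On the other row, annotated with the RefSeq transcript, Top2a was 4.72, 4.61, 4.51, 4.90 and 4.76 in AKI kidneys, against 4.89, 5.16 and 4.77 in Control kidneys. There the groups overlapped and the sign was opposite, at -0.24 (SE 0.12, adjusted p = 0.162), so the direction of Top2a is unsettled, and the count called with the RefSeq row was 8. The RefSeq row was used as an alternative after both rows were seen.

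**Figure D3:**
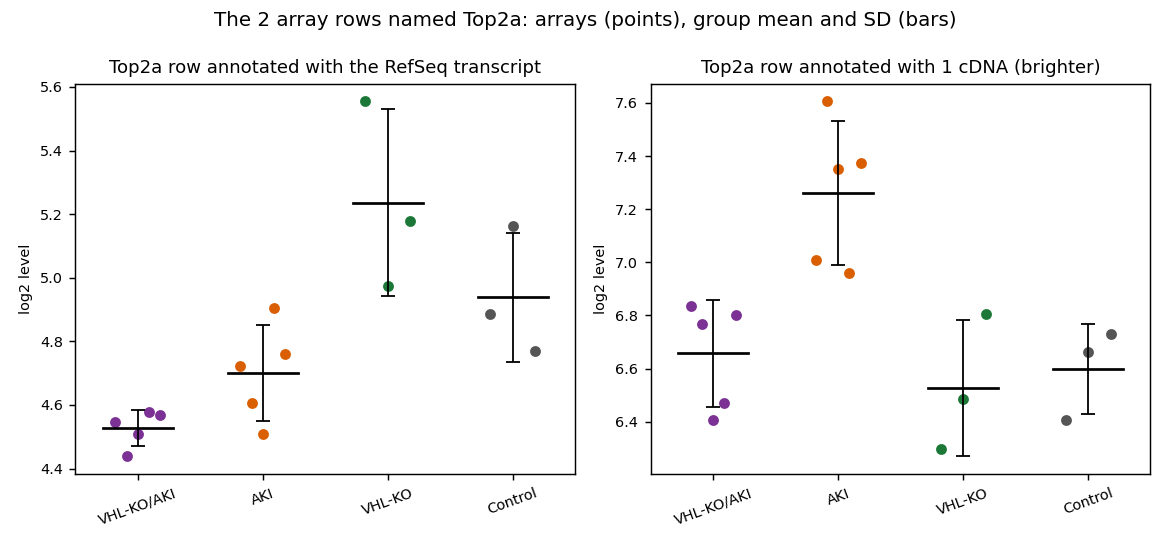
Points are arrays, with group mean and SD, for the 2 array rows named Top2a, in the order VHL-KO/AKI, AKI, VHL-KO and Control. On the row with 1 cDNA the AKI kidneys are highest, from 6.96 to 7.61, and on the row with the RefSeq transcript the VHL-KO kidneys are high, from 4.98 to 5.55.

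Markers of other cells moved in the same comparison. Of the 7 injured tubule markers, 6 rose, Havcr1 (KIM-1) by 5.75 and Lcn2 (NGAL) by 5.13 among them, and of the 7 neutrophil markers 6 rose. Neutrophil markers averaged 5.22 to 6.12 in AKI kidneys and 4.50 to 4.59 in Control kidneys. Of the 7 measured markers of kidney tissue 4 fell, and their mean was 10.28 to 11.32 in AKI kidneys and 11.40 to 11.64 in Control kidneys. Lymphocyte markers averaged 4.77 to 4.89 in AKI kidneys and 4.94 to 5.04 in Control kidneys, with 0 of 7 called. Of macrophage markers 1 rose and 2 fell of 8, of endothelial markers 1 rose and 2 fell of 7, of fibroblast and smooth muscle markers 2 of 5 rose, and of erythroid markers 1 of 4 fell. The shares called were 85.7% of tubule and of neutrophil markers and 57.1% of kidney tissue markers, beside 28.1% of all genes. For macrophage, endothelial, fibroblast and smooth muscle, and erythroid markers they were 37.5%, 42.9%, 40% and 25%, closer to that share. The part of these cell types in the cell cycle values was not tested. Without Control 1 the count of called cell cycle genes was 5, 3 higher and 2 lower. With a sex-linked level (Xist minus the Y-linked mean) in the model it was 0, and the median standard error of the 41 genes grew to 0.44 with that term, against 0.10 without it.

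Injury in Vhl-deleted kidneys gave the largest count of the 5 comparisons, and 13 of its 14 genes were lower, 9 of them mitotic. VHL-KO/AKI kidneys differed from VHL-KO kidneys at 14 of 41 genes (34.1%), 1 higher and 13 lower, beside 13.6% of all genes called in this comparison, 4.66% higher and 8.91% lower. The median difference was -0.21, against -0.01 over all genes. Differences were positive in 4 of 41, against 47.5% of all genes. In 20 of 41 genes every VHL-KO/AKI kidney lay below every VHL-KO kidney, against 14.9% of all genes, and in 0 of 41 every one lay above, against 9.42%. With the RefSeq row of Top2a, which fell by 0.71 (SE 0.12, adjusted p = 0.00152), 15 were called, whereas the brighter row gave 0.13 (adjusted p = 0.664).

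Ccna2 was 4.91, 4.81, 4.83, 4.77 and 4.69 in VHL-KO/AKI kidneys, against 6.68, 5.37 and 6.44 in VHL-KO kidneys. All 5 injured kidneys lay below VHL-KO 2, the lowest of the uninjured ones. Ccna2 fell by 1.36 (SE 0.22, 2.57-fold lower, adjusted p = 0.00112). Mki67 was 5.31, 5.58, 5.51, 5.11 and 5.41 in VHL-KO/AKI kidneys, against 7.02, 6.28 and 6.30 in VHL-KO kidneys. The groups did not overlap, and Mki67 fell by 1.15 (SE 0.16, 2.21-fold lower, adjusted p = 0.000362). Ube2c was 6.44, 6.26, 6.16, 6.29 and 6.32 in VHL-KO/AKI kidneys, against 7.78, 7.06 and 7.45 in VHL-KO kidneys. It did not overlap either, and fell by 1.14 (SE 0.13, adjusted p = 0.000115), the smallest adjusted p of the 41 genes here.

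Of the 10 G2 and mitotic cyclins and kinases all had a negative difference and 5 fell: Ccna2, Ccnb2 by 0.99, Cdk1 by 0.64, the spindle checkpoint kinase Bub1 by 0.49 and Aurkb, the kinase of the chromosomal passenger complex, by 0.38. Among the 12 chromosome, spindle and cytokinesis genes 3 fell, Mki67, the spindle motor Kif11 by 0.62 and Prc1 by 0.58. Ccna2, Ccnb2, Mki67, Kif11, Prc1, Ube2c, Rrm1 and Tk1 kept their calls with any 1 array left out (adjusted p at most 0.0288). Cdk1 lost its call without VHL-KO 1 (adjusted p = 0.0831). Aurkb lost it without VHL-KO 1, VHL-KO 2, VHL-KO/AKI 2 or VHL-KO/AKI 4 (adjusted p up to 0.144), and Bub1 in 11 of the 16 cases, which were every one but Control 1, Control 2, VHL-KO 3, AKI 4 and AKI 5 (adjusted p up to 0.234).

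Of the S phase genes 3 fell and 1 rose. Rrm1 was 7.61, 7.62, 7.41, 7.59 and 7.43 in VHL-KO/AKI kidneys, against 8.25, 8.20 and 8.12 in VHL-KO kidneys. Rrm1 did not overlap and fell by 0.66 (SE 0.11, adjusted p = 0.00158). Tyms, which makes thymidylate, fell by 0.41 (adjusted p = 0.0366) and Tk1 by 0.32 (adjusted p = 0.00497). Tyms lost its call without VHL-KO 1, VHL-KO 3 or any VHL-KO/AKI array but the third (adjusted p up to 0.183), and a second, dimmer row of Tk1 gave -0.15. Pcna was 9.73, 9.73, 9.45, 9.96 and 10.00 in VHL-KO/AKI kidneys, against 9.57, 9.20 and 9.27 in VHL-KO kidneys. VHL-KO/AKI 3 lay below VHL-KO 1, and Pcna rose by 0.43 (SE 0.13, adjusted p = 0.0473). That call was lost in 12 of the 16 cases with 1 array left out, all but VHL-KO 1, AKI 2, AKI 4 and VHL-KO/AKI 3 (adjusted p up to 0.177). Rrm2 was 5.56, 5.50, 5.29, 5.51 and 5.49 in VHL-KO/AKI kidneys, against 6.04, 5.61 and 5.77 in VHL-KO kidneys. Its groups did not overlap, and it was not called (-0.34, adjusted p = 0.0879).

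Of the regulators of entry Ccnd1 fell. It was 10.22, 10.03, 10.19, 9.81 and 8.96 in VHL-KO/AKI kidneys, against 10.82, 11.06 and 10.91 in VHL-KO kidneys. VHL-KO/AKI 5 was far below the rest of its group, no kidney overlapped, and the fall was 1.09 (SE 0.27, adjusted p = 0.0156), lost without VHL-KO 2 or VHL-KO 3 (adjusted p up to 0.0637). Beside these values, 5 of 7 injured tubule markers rose, 4 of 7 kidney tissue markers fell, 4 of 7 endothelial markers fell, and 0 of 7 lymphocyte and 0 of 7 neutrophil markers were called (6 and 1 at an unadjusted p under 0.05). Of the 4 erythroid markers Alas2 fell by 1.99 (adjusted p = 0.000138) and Tfrc, the transferrin receptor, rose by 1.04 (adjusted p = 0.0136), and the list mean of every VHL-KO/AKI kidney lay below the lowest VHL-KO kidney (7.10). Of the 8 macrophage markers Cd68 rose by 1.85 and Csf1r fell by 0.70, and of the 5 fibroblast and smooth muscle markers Dcn rose by 0.53. Over all genes 13.6% were called, 4.66% higher and 8.91% lower, and 27.3% had an unadjusted p under 0.05. Lymphocyte markers averaged 4.72 to 4.89 in VHL-KO/AKI kidneys and 4.90 to 5.71 in VHL-KO kidneys, and endothelial markers averaged 9.22 to 9.37 in VHL-KO/AKI kidneys and 9.68 to 9.92 in VHL-KO kidneys. Their part was not tested. With the sex-linked level in the model no gene was called (0), and the median standard error grew to 0.52, against 0.10 without it.

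**Figure D4:**
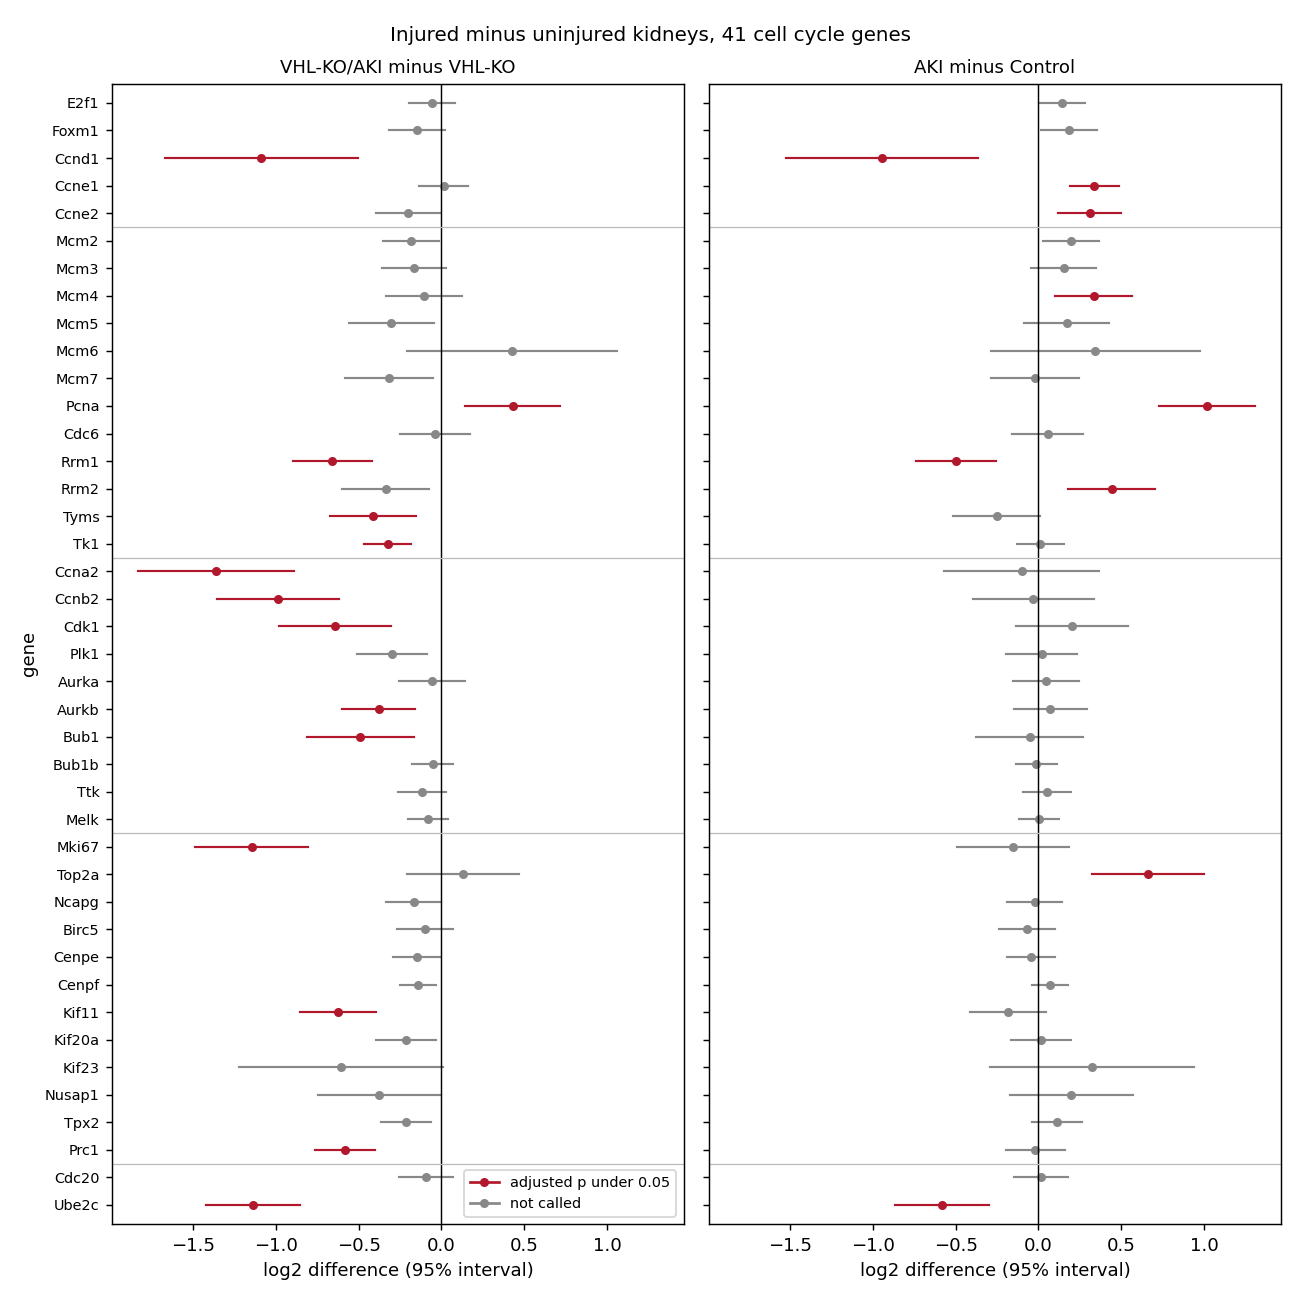
Points give the log2 difference of each of the 41 genes between injured and uninjured kidneys, with 95% intervals, for VHL-KO/AKI minus VHL-KO on the left and AKI minus Control on the right. Red marks an adjusted p under 0.05, which 14 genes have on the left and 9 on the right. Pcna lies right of 0 and Ccnd1, Rrm1 and Ube2c lie left of it in both panels.

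Between the injured groups 1 cell cycle gene passed the test, while 32 of 41 differences were negative. VHL-KO/AKI kidneys differed from AKI kidneys at 1 of 41 genes (2.44%), a lower one, beside 3.88% of all genes called, 2.48% higher and 1.4% lower. That gene was Top2a on its brighter row, at 6.84, 6.77, 6.41, 6.47 and 6.80 in VHL-KO/AKI kidneys, against 7.01, 7.61, 7.35, 6.96 and 7.37 in AKI kidneys. The groups did not overlap, and the row fell by 0.60 (SE 0.14, adjusted p = 0.0281). The call was lost without AKI 3, AKI 5, VHL-KO/AKI 2, VHL-KO/AKI 3 or VHL-KO/AKI 4 (adjusted p up to 0.0854), and without VHL-KO/AKI 5 the count was 2. On the RefSeq row the difference was -0.17 (SE 0.10, adjusted p = 0.41) and the count was 0.

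Ccne1 was 5.80, 5.66, 5.89, 5.83 and 5.91 in VHL-KO/AKI kidneys, against 6.09, 5.99, 5.96, 6.03 and 6.06 in AKI kidneys. All 5 doubly treated kidneys lay below all AKI kidneys, with a difference of -0.21 (SE 0.06, adjusted p = 0.0703). Rrm2 was 5.56, 5.50, 5.29, 5.51 and 5.49 in VHL-KO/AKI kidneys, against 6.08, 5.56, 5.67, 5.95 and 5.79 in AKI kidneys. The groups touched at 5.56 without overlapping, with a difference of -0.34 (SE 0.11, adjusted p = 0.0945). In 6 of 41 genes VHL-KO/AKI kidneys lay wholly below AKI kidneys (Top2a, Ccne1, Rrm2, Foxm1, Ccnb2 and Mki67), against 1.58% of all genes, and in 0 wholly above, against 2.19% (3.78% in either direction). The median difference was -0.08, against -0.01 over all genes, and 9 of 41 differences were positive, against 45.6% of all genes. Pcna had a difference of -0.25 (95% interval -0.50 to -0.00) and Ccnd1 one of 0.25, with an interval from -0.25 to 0.75. Of other cells, 2 of 7 neutrophil markers fell, their mean being 4.63 to 5.42 in VHL-KO/AKI kidneys and 5.22 to 6.12 in AKI kidneys. Of the 7 injured tubule markers the keratins Krt18 and Krt8 fell, by 0.90 and 0.51, with list means of 9.52 to 10.63 in VHL-KO/AKI kidneys and 9.61 to 10.82 in AKI kidneys. Of the 4 erythroid markers Tfrc rose by 1.02, and their means did not overlap, at no less than 6.79 in VHL-KO/AKI kidneys and 6.28 to 6.70 in AKI kidneys. Of the 5 fibroblast and smooth muscle markers Dcn rose by 0.69 and Acta2 fell by 0.57. No lymphocyte, macrophage, endothelial or kidney tissue marker was called (0 by limma, with 0, 2, 3 and 2 at an unadjusted p under 0.05). Over all genes 3.88% were called and 18.7% had an unadjusted p under 0.05. The part of these cell types was not tested.

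**Figure D5:**
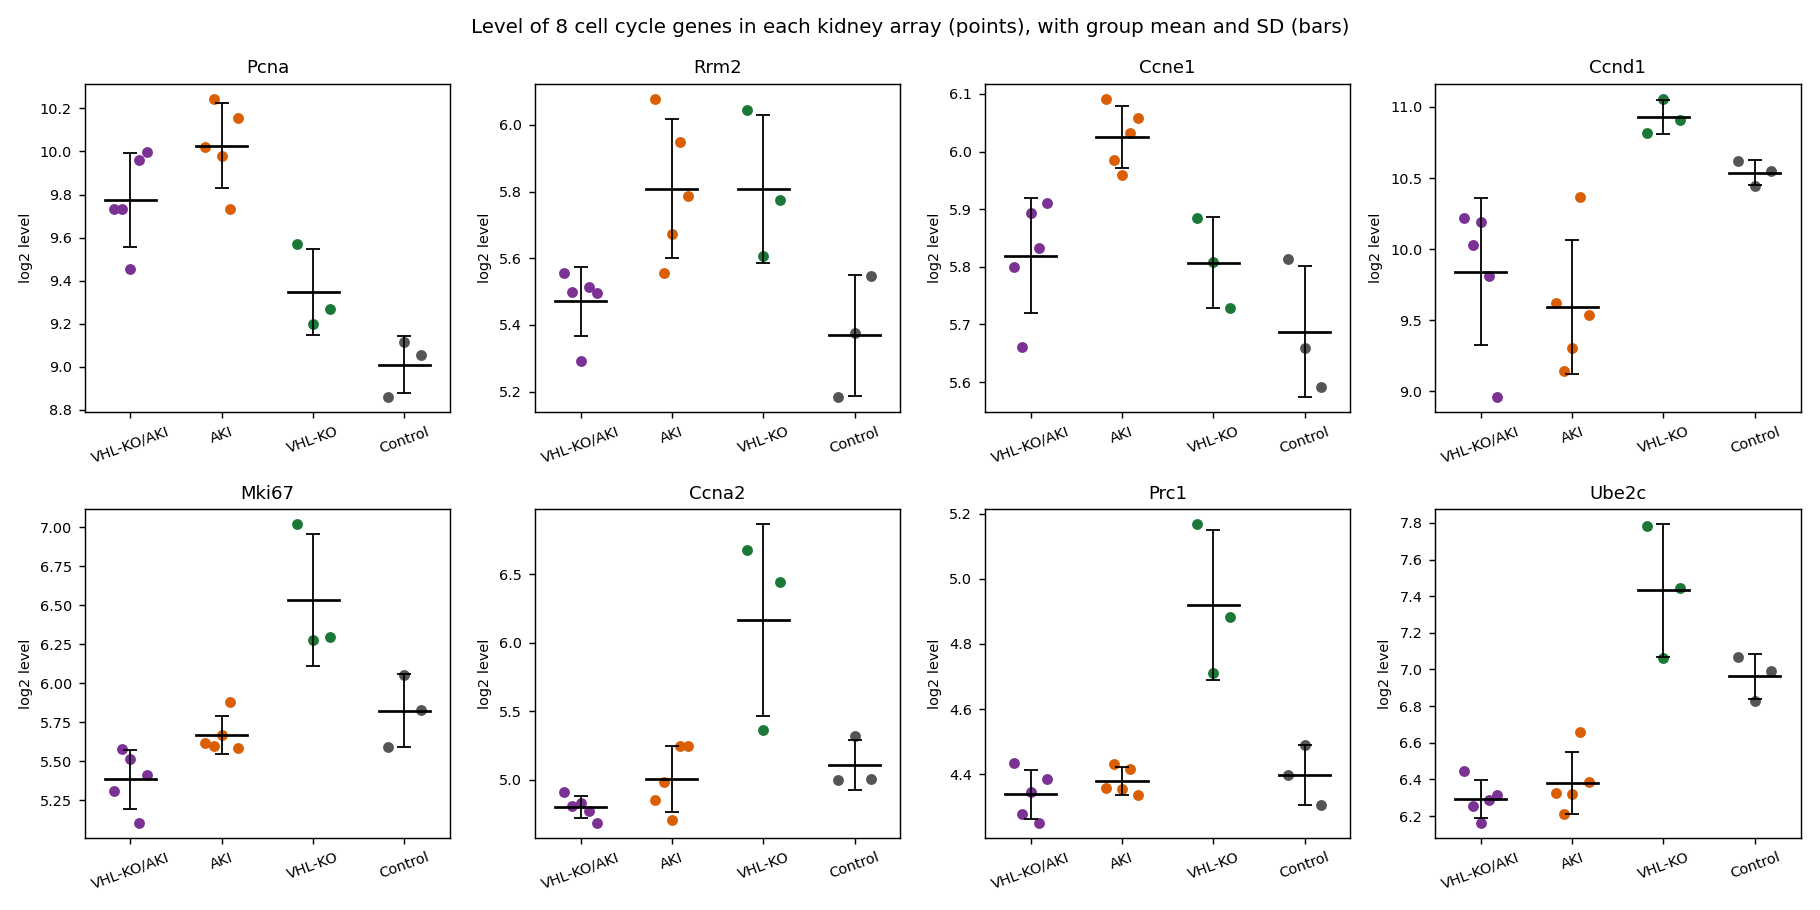
Points are the arrays of each group, with group mean and SD as bars, for 8 genes on a log2 axis that differs between panels. Pcna is highest in both injured groups, and Rrm2 and Ccne1 are higher in AKI than in VHL-KO/AKI kidneys. Mki67, Ccna2, Prc1 and Ube2c have their highest group mean in VHL-KO kidneys. In AKI kidneys Ube2c lies below the Control kidneys, while Mki67, Ccna2 and Prc1 overlap them.

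The interaction asks whether the knockout difference in injured kidneys was unlike that in uninjured ones, and is the difference in injured kidneys minus the difference without injury. No cell cycle gene passed (0 of 41 by limma), beside 0.01% of all genes. With array weights in limma 9 of 41 passed, and the share over all genes is not given for that fit. Of the 41 genes 24 had an unadjusted p under 0.05, against 12% of all genes, and 1 of 41 values was positive, against 44% of all genes, with a median of -0.33 against -0.02 over all genes. The smallest p belonged to Prc1, whose row was dim, at -0.56 (95% interval -0.82 to -0.31, adjusted p = 0.0982). The next belonged to Rrm2, at -0.78 (95% interval -1.15 to -0.40, adjusted p = 0.116). Ccna2 had the largest value, -1.26 (SE 0.31, adjusted p = 0.144), and Mki67 had -0.99 (SE 0.23, adjusted p = 0.116). The count was 4 without AKI 4 (Ccne2, Mki67, Prc1 and Rrm2), 2 without VHL-KO 2 and 1 without VHL-KO/AKI 5. No share over all genes is given for these fits. Ccnd1 had -0.14 and changed sign in 4 of the alternatives.

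Genes that surround these 41 in the pathway were read from further lists. Of 10 drivers of G1, Myc, which pushes resting cells into the cycle, was called in 4 comparisons. It was 9.32, 9.37, 9.21, 9.48 and 9.72 in VHL-KO/AKI kidneys, 9.73, 10.20, 9.66, 9.65 and 10.07 in AKI kidneys, 8.36, 7.66 and 8.73 in VHL-KO kidneys and 6.94, 6.59 and 6.49 in Control kidneys. Only the injured groups overlapped. Myc rose by 3.19 in AKI against Control kidneys (adjusted p = 4.32e-07), by 1.58 in VHL-KO against Control kidneys (adjusted p = 0.00467) and by 1.17 in VHL-KO/AKI against VHL-KO kidneys (adjusted p = 0.0018), and its interaction was -2.02 (SE 0.29, adjusted p = 0.0466). The interaction call was lost after centring, quantile scaling or cyclic loess scaling. Sex and injury cannot be told apart in it. In AKI against Control kidneys 5 of the 10 rose (against 13.2% of all genes called higher), among them Cdk6 by 0.93 and E2f3 by 0.87, and Ccnd3 fell by 0.56. In VHL-KO/AKI against VHL-KO kidneys 2 of the 10 rose (against 4.66% of all genes called higher), Myc and E2f3 (0.65, adjusted p = 0.0337).

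Of 17 measured brakes on the cycle 9 were called in AKI against Control kidneys (52.9%, against 28.1% of all genes), 5 higher and 4 lower. The stress-induced brakes Btg2 rose by 2.35 (adjusted p = 0.000411), Gadd45a by 2.07 (adjusted p = 0.00106) and Gadd45g by 1.23 (adjusted p = 0.00311), whereas the retinoblastoma relative Rbl2 fell by 0.63 and the CDK inhibitors Cdkn2c and Cdkn1c by 0.52 and 0.50. In VHL-KO/AKI against AKI kidneys 2 of 17 were called (11.8%, against 3.88% of all genes). Gadd45a fell by 1.59 (adjusted p = 0.0198), while Rbl2 rose by 0.40 (adjusted p = 0.049). In VHL-KO/AKI against VHL-KO kidneys 4 of 17 fell (against 8.91% of all genes called lower), Rbl1 by 0.52, Cdkn1c by 0.39, Cdkn1b (p27) by 0.38 and Rb1 by 0.37. In VHL-KO against Control kidneys 0 of 17 were called, against 0.527% of all genes (3 at an unadjusted p under 0.05, against 8.35%).

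Of 33 further replication genes 8 were called in AKI against Control kidneys (24.2%), near the 28.1% of all genes. Of these 6 were higher and 2 lower, where 13.2% of all genes were called higher and 14.9% lower. The licensing factor Cdt1 rose by 1.15 (adjusted p = 7.18e-05), the origin recognition subunit Orc2 by 0.80 (adjusted p = 0.000658) and the flap endonuclease Fen1 by 0.41, and the clamp loader subunit Rfc2 and the single-strand binding subunit Rpa1 fell by 0.48 and 0.29. Cdt1 was 6.33, 6.41, 6.23, 6.60 and 6.85 in VHL-KO/AKI kidneys, against 6.73, 6.93, 7.11, 7.02 and 7.32 in AKI kidneys. The groups overlapped at VHL-KO/AKI 5, and Cdt1 fell by 0.54 (adjusted p = 0.03), the 1 call of 33 there (3.03%, against 3.88% of all genes). In VHL-KO/AKI against VHL-KO kidneys Gins2 rose by 0.36 and Pole fell by 0.38, 2 of 33 (6.06%, against 13.6% of all genes).

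Of 40 further mitotic genes 12 were called in VHL-KO/AKI against VHL-KO kidneys (30%, against 13.6% of all genes), 1 higher and 11 lower. Ect2, which drives the cleavage furrow, fell by 0.92 (adjusted p = 0.00579), the condensin subunit Ncapd2 by 0.53 (adjusted p = 0.0034) and Racgap1, a partner of Kif23, by 0.51, while the CDK-binding Cks1b rose by 0.98 (adjusted p = 0.03). In AKI against Control kidneys 4 were called (10%, against 28.1% of all genes), Cks1b and Gtse1 higher by 1.19 and 0.60 and the kinetochore subunit Spc25 and Ect2 lower by 0.94 and 0.87. In VHL-KO against Control kidneys 1 of 40 was called (2.5%, against 0.527% of all genes). This was Hmmr, a spindle protein, at 5.49, 5.28 and 5.46 in VHL-KO kidneys, against 5.04, 5.07 and 5.02 in Control kidneys. Hmmr did not overlap and rose by 0.36 (adjusted p = 0.0329), and VHL-KO 2 was again the lowest of its group. Of 7 measured checkpoint and recombination genes 1 was called in any comparison, Brca2, which fell by 0.35 in VHL-KO/AKI against VHL-KO kidneys (adjusted p = 0.00596). That is 14.3% of the list there, against 13.6% of all genes.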

How the data were processed

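Kidney RNA of 16 mice was hybridised to single-colour whole-transcript arrays, 1 array per labelled replicate. The deposited values are log2 levels per probe set, from 3.34 to 14.71. The submitters' processing notes name RMA, a method that corrects, normalizes and summarises probe signals, and Partek 6.4, with settings, order and genome build not given in the sources used here. Of 35556 rows, 21789 pair with exactly 1 gene symbol in GEO's platform annotation, 1621 with several and 12146 with none, which left 19938 genes after the brightest row of each was taken. No further scaling was applied, and 0 pairs of arrays were identical. Groups came from the sample titles.

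One limma model (limma 3.58.1, R 4.3.3) held all 16 arrays with 1 mean for each of the 4 groups, 12 residual and 2.83 prior degrees of freedom. Tests were 2-sided, in 5 comparisons, with Benjamini-Hochberg adjustment over all genes and calls at an adjusted p under 0.05. The number of animals limits the precision. The members, the further lists and the alternatives were chosen with earlier results of these data known. Values in every array are given for Mki67, Top2a, Pcna and Ccnd1, for up to 4 called members per direction with the largest change in each comparison, and for the 2 members of smallest p where fewer than 2 were called; from each further list up to 3 called genes per direction are named. A few other members (Ccnb2, Cdk1, Mcm6, Kif23) and pathway genes (Rb1) were chosen after their values were seen. Replicate numbers did not pair the arrays: correlations of same-numbered deviations from the group means lay between -0.229 and 0.0113 for VHL-KO with Control and between -0.381 and 0.173 for VHL-KO/AKI with AKI.

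Alternatives changed the row rule, the filter on dim genes, the scaling, the variance model, array weights, a replicate block, a sex-linked covariate, the arrays included and the groups fitted. Promoters are from RefSeq (GRCm38.p6), by symbol.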

Additional observations from a re-analysis of the deposited data

Results flagged for a closer look

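In the groups of 5 arrays, 82 sets of values were checked for an array far from the rest by Dixon's ratio, and 5 were flagged. That share is near the 1 group in 20 that chance alone flags. Kif23 in AKI 4 was 6.77, high against the next AKI kidney at 5.68. Mki67 in AKI 4 was 5.88, against 5.67 for the next. Thus 2 of the 5 lay in AKI 4, the array with the lowest mean of injured tubule markers in its group (9.61, against 10.59 to 10.82 in the other AKI kidneys). Foxm1 in AKI 5 was 5.24, high against 5.03. Rrm2 in VHL-KO/AKI 3 was 5.29, low against 5.49. Ttk, a spindle checkpoint kinase, was 4.53 in VHL-KO/AKI 1, high against 4.37.

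Myc differed between injured and uninjured kidneys in its knockout difference. The interaction was -2.02 (SE 0.29, adjusted p = 0.0466, limma), with knockout differences of -0.44 among injured kidneys (adjusted p = 0.188) and 1.58 among uninjured ones (adjusted p = 0.00467). In this fit 2 of all genes were called for the interaction. After centring, quantile scaling or cyclic loess scaling 0 of all genes were, so the Myc call was lost in each. Xist split these kidneys as injury did, so a knockout difference that varied with sex cannot be told apart from this one.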

How the results depend on the processing

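Counts of called members are given in 1 order of comparisons: the knockout without injury (1), the injury without knockout (9), the knockout among injured kidneys (1), the injury among knockout kidneys (14) and the interaction (0). With array weights they were 6, 10, 4, 22 and 9. For VHL-KO against Control the count was 0 after centring, with the sex-linked covariate, without Control 3 and AKI 4 together, and with the compared groups alone. It was also 0 with the lowest tertile of genes left out, a filter that removes Prc1, the single called gene, and so does not test it. The groups alone also gave 0 for VHL-KO/AKI against AKI, as did the RefSeq row of Top2a. The sex-linked covariate gave 0 for both comparisons of injured with uninjured kidneys, where it nearly repeats the injury label and raised the median standard error to 0.44 and 0.52, against 0.10. With 1 array left out the counts ranged from 0 to 6, 5 to 10, 0 to 2, 10 to 18 and 0 to 4. Shares over all genes are not given for the fits with array weights or with 1 array left out. With the replicate number as a block, which does not pair these arrays (in 0 of 3 and 0 of 5 cases did an array correlate best with its own number), the counts were 0, 7, 1, 10 and 0.

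Several single values changed sign. Top2a in VHL-KO against Control (-0.07) was 0.11 as the mean of its rows, 0.040 with the sex-linked covariate and 0.30 on the RefSeq row, and lay between -0.21 (without VHL-KO 3) and 0.044 (without VHL-KO 1) with 1 array left out. In VHL-KO/AKI against VHL-KO (0.13) it was -0.29 as the mean of its rows, -0.61 with that covariate and -0.71 on the RefSeq row, and in AKI against Control (0.66) it was -0.24 on the RefSeq row. Rrm2 in AKI against Control (0.44) was -0.12 with the sex-linked covariate (adjusted p = 1). The interaction of Ccnd1 (-0.14) was 0.10 with array weights, 0.046 without Control 3 and AKI 4, and between -0.25 (without AKI 2) and 0.079 (without VHL-KO/AKI 5) with 1 array left out, also turning positive without AKI 4. The cause was not tested. The RefSeq row was added after the data were seen. Sex, water withdrawal and injury cannot be told apart, the time of harvest after glycerol is not given in the sources used here, and dim rows limit what small differences can show.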
